A study of Mus musculus with 8 samples.

Results

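The miR-99/100 and miR-125 families are 5 microRNAs (miRNAs, small non-coding RNAs that repress mRNAs by base pairing) named on the array as mmu-miR-99a-5p, mmu-miR-99b-5p, mmu-miR-100-5p, mmu-miR-125a-5p and mmu-miR-125b-5p. They were chosen by name, as the 5p arms of the miR-99, miR-100 and miR-125 hairpins among the 611 mouse miRNAs on the array, and all 5 were found and all 5 passed the filter on dim miRNAs. miRNAs were measured in C3H10T1/2 cells, an established mouse mesenchymal cell line from embryonic connective tissue that is used as a model of hedgehog signaling. Cells of the WT group were incubated for 48 h with 750 nM of the wild type N-terminal fragment of Indian hedgehog (IhhN), cells of the MT group with 750 nM of the E95K mutant fragment, and cells of the control group received no protein. The fragments were recombinant human proteins made in bacteria, and the cells were a line in culture, not cartilage. Each group had 2 RNA samples (n = 2). Each WT sample was hybridised on 2 arrays and every other sample on 1, which gave 8 arrays on 1 slide. The sources do not say whether the 2 samples of a group came from separate cultures, so the p-values measure only the spread between these samples, which may be technical.

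An miRNA finds its targets mainly through its seed, bases 2 to 8 from the 5′ end. The members of the miR-99/100 family share a seed and are known for repressing the growth kinase mTOR and the IGF1 receptor. The miR-125 family is the vertebrate counterpart of the worm heterochronic miRNA lin-4 and represses Lin28, the RNA-binding protein that blocks maturation of let-7, and miR-125b is known as a restraint on osteoblast differentiation of mesenchymal cells. In mammals the families are encoded side by side with let-7, in clusters that each hold a miR-99/100 gene, a let-7 gene and a miR-125 gene.

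The mature sequences of the 5 members and of the let-7 encoded beside them, from RefSeq on the build GRCm38.p6, are shown 5′ to 3′ with the seed in capitals, because the members of a family differ at few bases and a probe has to tell them apart.
mmu-miR-99a-5p: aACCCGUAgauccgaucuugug
mmu-miR-99b-5p: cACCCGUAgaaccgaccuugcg
mmu-miR-100-5p: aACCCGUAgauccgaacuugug
mmu-miR-125a-5p: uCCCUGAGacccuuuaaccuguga
mmu-miR-125b-5p: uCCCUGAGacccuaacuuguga
mmu-let-7a-5p: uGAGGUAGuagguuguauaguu
mmu-let-7c-5p: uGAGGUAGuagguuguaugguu
mmu-let-7e-5p: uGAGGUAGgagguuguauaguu

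Counted from 1 at the 5′ end, miR-99a-5p and miR-100-5p differ only by U16A (miR-99a-5p has U and miR-100-5p has A). From miR-99a-5p to miR-99b-5p the changes are A1C, U11A, U16C and U21C. miR-125a-5p has 24 bases and miR-125b-5p has 22, and their first 13 bases are identical. The seed ACCCGUA was held by no other mouse miRNA of the array that RefSeq names, and the seed CCCUGAG by 1 other, miR-351-5p. RefSeq named 476 of the 611 miRNAs on the array, all 5 members included. The bases G and C make up 50% of each member apart from miR-99b-5p, where they make up 63.6%.

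On GRCm38.p6 the genes form 3 clusters, all on the plus strand. The chromosome 16 cluster runs from miR-99a-5p (chr16:77598940-77598961) past let-7c-5p to a copy of miR-125b-5p from the gene Mir125b-2 (chr16:77646279-77646300), over 47.4 kb. The chromosome 9 cluster runs from miR-100-5p (chr9:41531437-41531458) past the let-7a gene Mirlet7a-2 to the copy of miR-125b-5p from Mir125b-1 (chr9:41581940-41581961), over 50.5 kb. The chromosome 17 cluster is compact, with miR-99b-5p (chr17:17830194-17830215), let-7e-5p (chr17:17830366-17830387) and miR-125a-5p (chr17:17830817-17830840) inside 647 bases. Mature miR-125b-5p is the same RNA from both of its genes, so the array could not tell chromosome 16 from chromosome 9 for it.

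Over the 8 arrays, 104 to 150 of the 611 mouse miRNAs were detected, meaning that over 50% of the spots of a probe were marked as well above background, and no spot was saturated. The first array of WT replicate 1 and the array of MT replicate 1 had the most variable negative controls (an SD over those spots of 6.63 and 5.61 signal units, where the rest gave 2.91 to 3.76). The signal at the 75th percentile, taken over the probes that every array detected, was 785 and 606 units on the control arrays and 432 to 565 on the others, and each array was divided by its own value. All levels below are therefore scaled signals on the log2 scale, relative to that percentile. The left side of the slide held WT replicate 1 and the MT samples, and the right side held WT replicate 2 and the control samples. Of 7 miRNAs fixed as markers of mesenchymal cells, 6 were detected on all arrays and miR-145-5p on 7, and their summed signal was 12.5 to 12.9 in WT, 12.7 to 12.9 in MT and 13.0 to 13.1 in control samples on the log2 scale. Of 18 markers of liver, nerve, blood, muscle, epithelial and stem cells, 0 were detected on any array.

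All 5 members were detected on all 8 arrays, each at both of its probes. A probe had 10 spots, and the coefficient of variation among the spots of a member's brighter probe had medians over the arrays of 4.26% for miR-99a-5p, 4.90% for miR-99b-5p, 9.65% for miR-100-5p, 4.83% for miR-125a-5p and 5.50% for miR-125b-5p. The SD between samples of a group had a median over the tested miRNAs of 0.13 in WT, 0.12 in MT and 0.14 in control, against 0.07 and 0.05 between the arrays of one WT sample. Probes differ in how brightly they shine for the same amount of RNA, so levels are compared between groups for one miRNA and not between miRNAs.

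miR-99b-5p, the miR-99/100 member of the chromosome 17 cluster, had the largest differences from control among the 5 members under this scaling, though not without scaling or in a fit that includes the slide side. Its scaled signal on the log2 scale was 8.69 and 8.82 on the arrays of WT replicate 1 and 8.47 and 8.52 on those of WT replicate 2. It was 8.76 and 8.74 in the MT samples and 8.09 and 8.06 in the control samples. Every WT and MT array lay above both control arrays, and the group means ran from MT (8.75 ± 0.01, SD, n = 2) through WT (8.63 ± 0.18, n = 2) to control (8.08 ± 0.02, n = 2), with MT and WT apart by less than the spread of WT. The level was 1.60-fold higher in MT than in control (log2 difference 0.68, 95% confidence interval 0.31 to 1.05, limma's unadjusted p = 0.0036, adjusted p = 0.062) and 1.46-fold higher in WT (0.55, 0.18 to 0.92, unadjusted p = 0.010, adjusted p = 0.14). Both differences missed the adjusted threshold of 0.05, and they shrank to 0.02 for MT and 0.06 for WT without scaling and to -0.04 and 0.19 with scaling over all mouse probes.

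miR-125a-5p, encoded beside miR-99b-5p and let-7e, followed the same order of groups. Its scaled signal was 9.52 and 9.70 on the arrays of WT replicate 1 and 9.48 and 9.61 on those of WT replicate 2, 9.61 and 9.67 in the MT samples, and 9.16 and 9.05 in the control samples. All 6 arrays of induced cells lay above both control arrays, and WT (9.58 ± 0.05, SD, n = 2) and MT (9.64 ± 0.04, n = 2) overlapped. The difference from control was 0.54 for MT (1.45-fold, 95% confidence interval 0.19 to 0.88 on the log2 scale, limma's unadjusted p = 0.0080, adjusted p = 0.062) and 0.47 for WT (1.39-fold, 0.13 to 0.82, unadjusted p = 0.014, adjusted p = 0.14). Without scaling these values turned to -0.12 and -0.02, and over all mouse probes they were -0.18 and 0.12.

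miR-125b-5p, the restraint on osteoblast differentiation named above, differed from control by less. The arrays of WT replicate 1 gave 13.56 and 13.65 and those of WT replicate 2 gave 13.32 and 13.39, the MT samples 13.56 and 13.57, and the control samples 13.25 and 13.08. No induced array overlapped with a control array, but the gap between the lowest WT array and the highest control array was smaller than the distance between the control arrays. The difference from control was 0.40 for MT (1.32-fold, 95% confidence interval 0.02 to 0.78, limma's unadjusted p = 0.042, adjusted p = 0.12) and 0.32 for WT (1.24-fold, -0.07 to 0.70, unadjusted p = 0.092, adjusted p = 0.22), and turned to -0.26 and -0.18 without scaling and to -0.31 and -0.04 with scaling over all mouse probes.

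miR-100-5p, which shares the chromosome 9 cluster with a copy of miR-125b-5p, showed no difference that its spread would allow to be called. It measured 8.76 and 8.70 on the arrays of WT replicate 1, 8.55 and 8.57 on those of WT replicate 2, 8.57 and 8.60 in the MT samples and 8.52 and 8.32 in the control samples. The arrays of induced cells again lay above both control arrays, the closest being 8.55 in WT against 8.52 in control. The difference from control was 0.22 for WT (95% confidence interval -0.15 to 0.59, limma's unadjusted p = 0.20) and 0.16 for MT (-0.21 to 0.53, unadjusted p = 0.33), and turned to -0.27 and -0.50 without scaling and to -0.14 and -0.55 over all mouse probes.

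miR-99a-5p, the member that heads the chromosome 16 cluster, had another order of groups. Its scaled signal was 9.78 and 9.93 on the arrays of WT replicate 1, 9.88 on both arrays of WT replicate 2, 9.68 and 9.61 in the MT samples and 9.66 and 9.77 in the control samples. The WT arrays were the highest, and the MT and control arrays overlapped. The group means ran from WT (9.87 ± 0.01, SD, n = 2) through control (9.71 ± 0.07, n = 2) to MT (9.64 ± 0.05, n = 2). The difference from control was 0.15 for WT (95% confidence interval -0.19 to 0.50, limma's unadjusted p = 0.32, adjusted p = 0.48) and -0.07 for MT (-0.41 to 0.27, unadjusted p = 0.65, adjusted p = 0.75), and was -0.34 and -0.73 without scaling and -0.20 and -0.78 over all mouse probes.

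**Figure D1:**
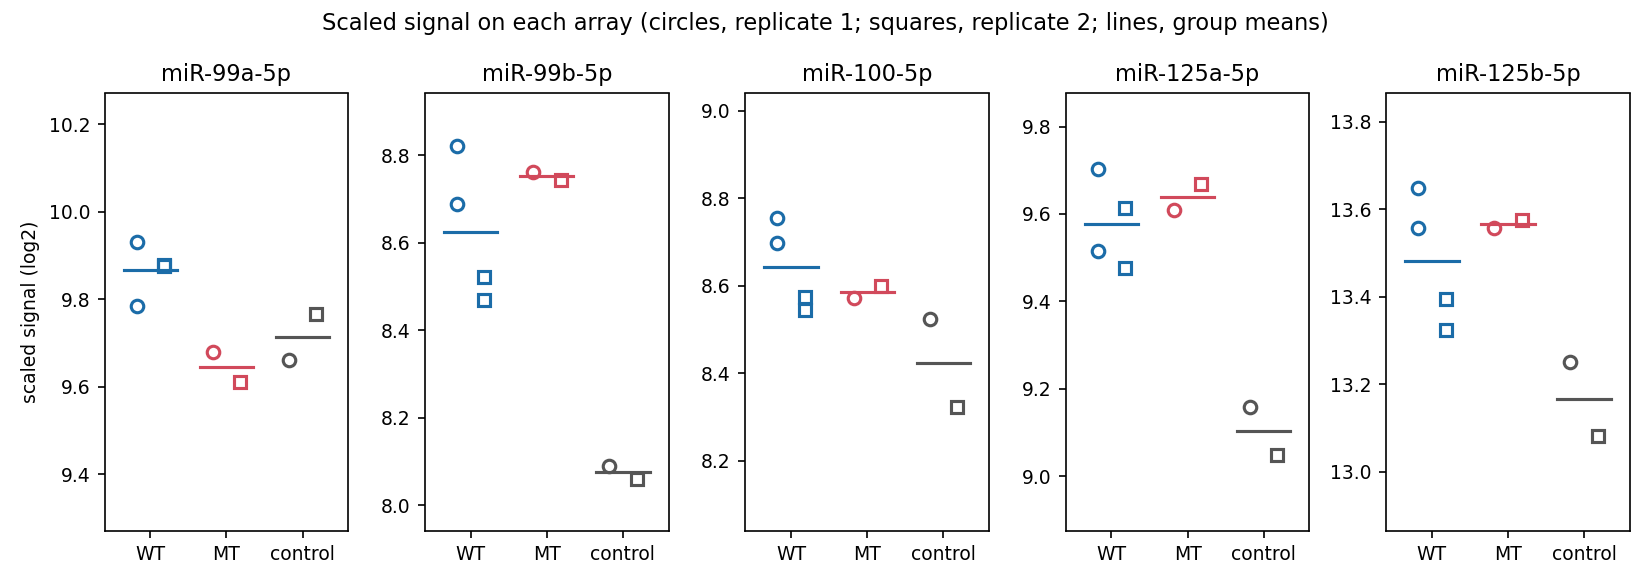
Scaled signal (log2) of each member on each of the 8 arrays, in panels that span the same height of 1 log2 unit, with circles for replicate 1, squares for replicate 2 and lines at the mean of the 2 samples of a group. The WT and MT arrays lie above both control arrays for miR-99b-5p, miR-125a-5p, miR-125b-5p and miR-100-5p, and for miR-99a-5p the MT and control arrays overlap. Without scaling, the arrays of miR-99b-5p overlap between all groups.

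Which members differed between cells given wild type IhhN and cells given none was the first comparison of the design. In limma's test across the 142 tested miRNAs with Benjamini-Hochberg adjustment, 0 of the 5 members passed an adjusted p of 0.05, as did 0% of all tested miRNAs. At an unadjusted p under 0.05, 2 members (miR-99b-5p and miR-125a-5p) were higher in WT under this scaling, and 0 without scaling or over all mouse probes, while 17.6% of all tested miRNAs were higher and 28.2% differed in either direction. Every WT array lay above every control array for 5 of 5 members and for 29.6% of all tested miRNAs under this scaling, and for 0 members without scaling. The share of all tested miRNAs was not counted without scaling, where their median difference was -0.32. The median difference of the members was 0.32 on the log2 scale, against 0.12 for all tested, and 0 members differed by more than 2-fold.

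The second comparison, of the E95K mutant protein with no protein, gave a similar picture with the same control samples. Again 0 members passed the adjusted threshold, as did 0% of all tested miRNAs. At an unadjusted p under 0.05, 3 members (miR-99b-5p, miR-125a-5p and miR-125b-5p) were higher in MT under this scaling, and 0 without scaling or over all mouse probes, against 26.8% of all tested miRNAs higher and 39.4% in either direction. The MT arrays lay above the control arrays for 4 of 5 members, miR-99a-5p being the exception, and for 40.8% of all tested miRNAs under this scaling. Without scaling they lay above for 0 members, and below both control arrays for miR-99a-5p and miR-100-5p. The share of all tested miRNAs was not counted there, and their median difference was -0.50. The median difference of the members was 0.40, against 0.13 for all tested.

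The third comparison set the wild type protein against the mutant one. No member passed the threshold, with 0% of all tested miRNAs past the adjusted p and 0% with an unadjusted p under 0.05. The differences (WT minus MT) were 0.22 for miR-99a-5p, 0.06 for miR-100-5p, -0.06 for miR-125a-5p, -0.09 for miR-125b-5p and -0.13 for miR-99b-5p. Of the 5, miR-99a-5p alone had arrays that did not overlap between WT and MT, which held for 14.8% of all tested miRNAs in either direction. Its 95% confidence interval was -0.12 to 0.57 (limma's unadjusted p = 0.17, adjusted p = 0.99), and the difference was 0.58 with scaling over all mouse probes and 0.39 without scaling. The intervals of the other 4 members lay between -0.50 and 0.43.

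**Figure D2:**
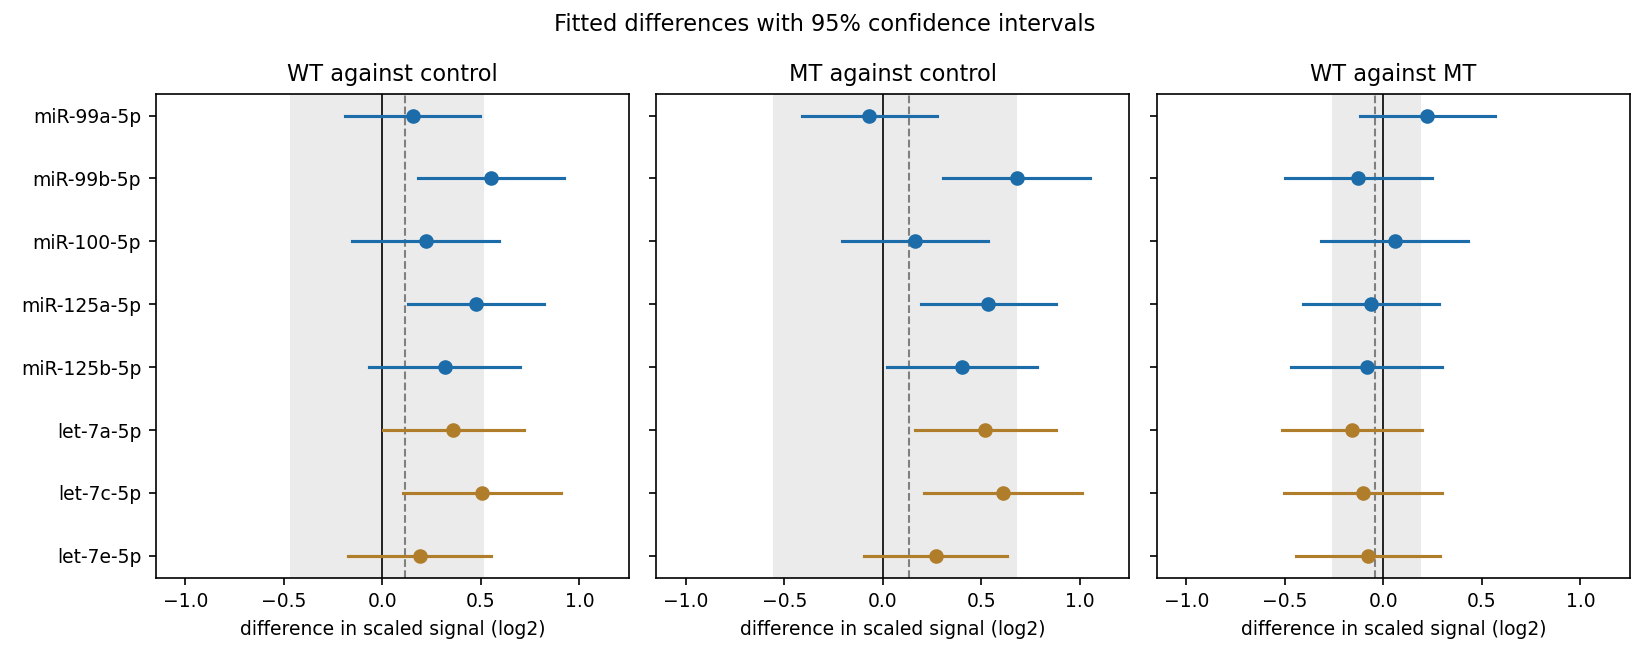
Fitted differences in scaled signal (log2, points) with 95% confidence intervals (lines) for the 5 members in blue and their let-7 cluster partners in brown, over the range from the 10th to the 90th percentile of all 142 tested miRNAs (grey) and their median (dashed). In both comparisons with control all points lie to the right of the median, except that of miR-99a-5p in MT against control, which lies below 0. Without scaling the points of the members other than miR-99b-5p lie below 0 in both.

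The direction of these differences against control depended on the scaling, and the control arrays were the brighter ones. Without scaling, the signal of miR-99b-5p was 313 to 412 units on WT arrays, 357 to 370 on MT arrays and 312 to 412 on control arrays, so the groups overlapped. For miR-99a-5p it was 801 to 1025 on WT arrays, 650 to 699 on MT arrays and 1017 to 1225 on control arrays, with the MT arrays the lowest. Without scaling, the median of all tested miRNAs moved from 0.12 to -0.32 for WT against control and from 0.13 to -0.50 for MT against control, and 0 of 5 members had an unadjusted p under 0.05 for WT and 1, miR-99a-5p, for MT, where it was lower than in control (log2 difference -0.73, limma's unadjusted p = 0.011, adjusted p = 0.034). In the same setting 50 of all 142 tested miRNAs passed the adjusted threshold for MT and 29 for WT, and 60 and 42 had an unadjusted p under 0.05. Scaling to the 75th percentile of all mouse probes moved those medians to -0.19 and -0.52. The median of the members moved with them, from 0.32 to -0.18 without scaling and -0.04 over all mouse probes for WT, and from 0.40 to -0.26 and -0.31 for MT. How much miRNA the cells held in all was not measured.

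Relative to the median of all tested miRNAs, the differences of miR-99b-5p, miR-125a-5p and miR-125b-5p from control were positive in every setting run, though their order was not the same. This held for let-7a-5p and let-7c-5p as well. In WT against MT miR-99b-5p, miR-125a-5p and miR-125b-5p took either sign. Many settings could hardly change the sign against control. The replicate block, the random block, the fit of only the groups compared and the intensity trend left the values as in the main setting. Subtracting the median cancels a factor per array, apart from the floor. In MT against control, miR-99b-5p lay 0.28 to 0.68 above that median over 25 settings of the processing, miR-125a-5p 0.29 to 0.54 above and miR-125b-5p 0.02 to 0.40 above. miR-99a-5p lay 0.07 to 0.27 below it in every one of them (from -0.27 to -0.07). In WT against control, over 24 settings, miR-99b-5p lay 0.28 to 0.55 above the median, miR-125a-5p 0.18 to 0.47 above and miR-125b-5p 0.0024 to 0.32 above. miR-99a-5p lay on either side of it there, from -0.12 to 0.15, as did miR-100-5p in both comparisons. The upper end of each of these ranges came from the fit with no filter, where the median of all tested miRNAs was 0.

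**Figure D3:**
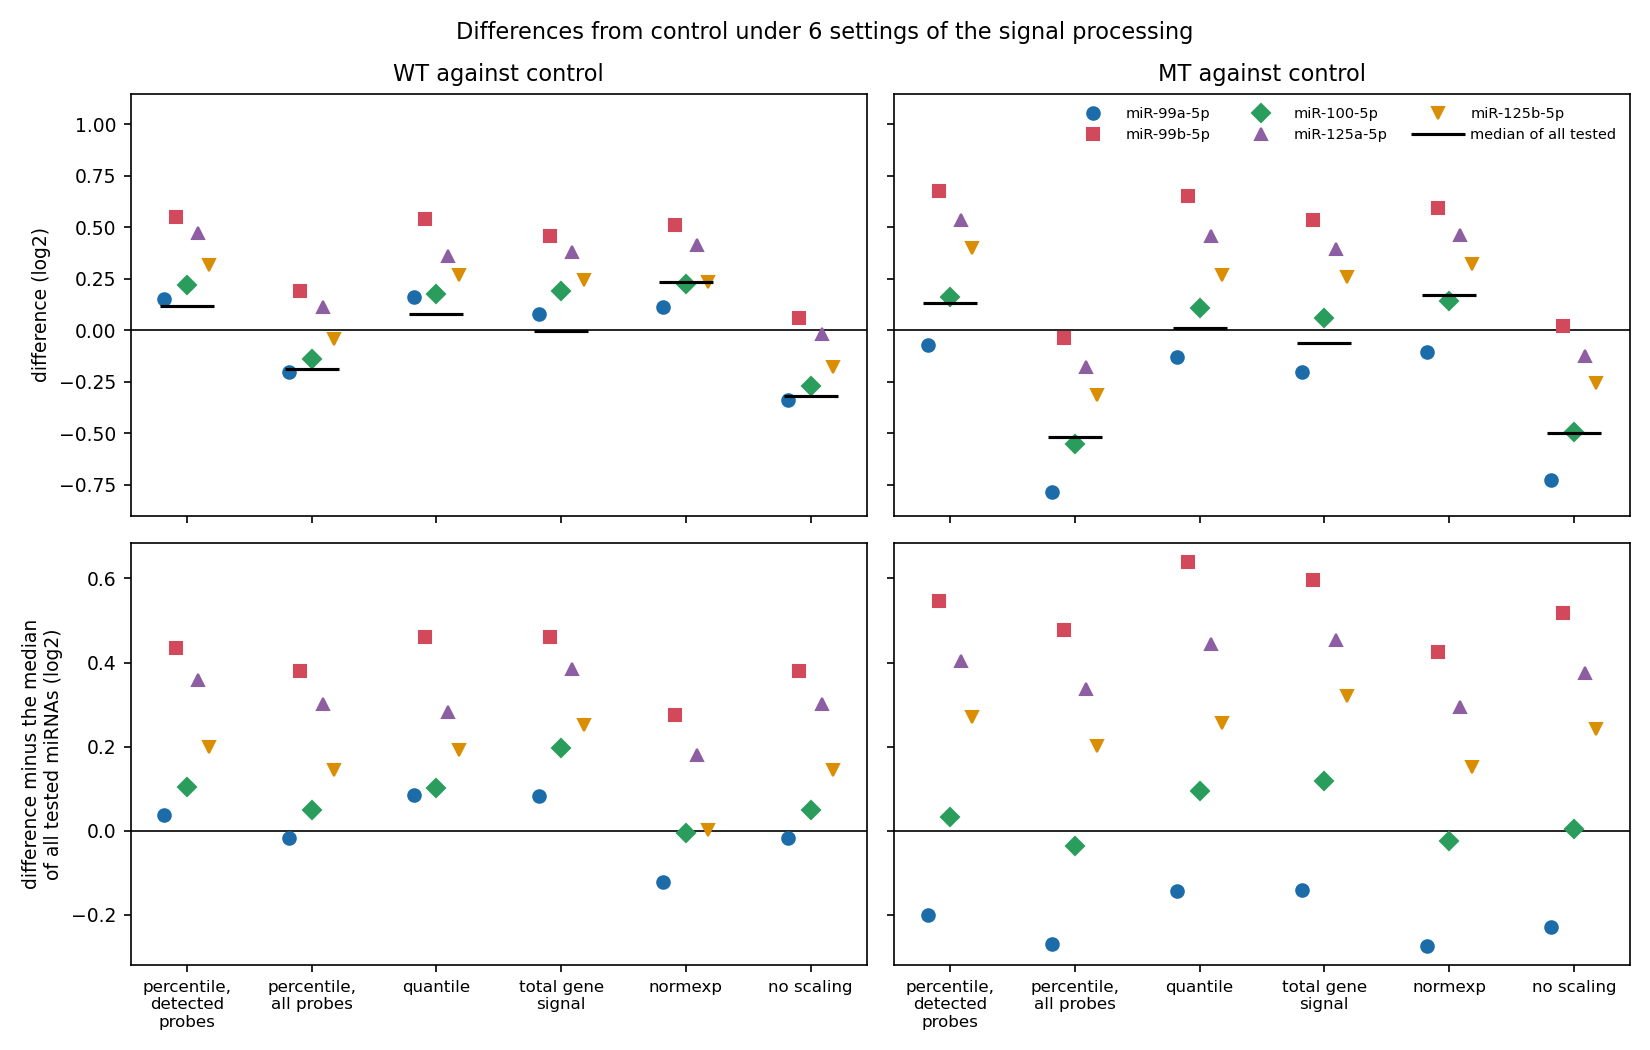
Differences from control (log2) of the 5 members under 6 settings of the processing, as fitted (upper panels, with a bar at the median of all tested miRNAs) and after subtraction of that median (lower panels). The upper values fall below 0 for most members under scaling over all probes and without scaling, whereas in the lower panels miR-99b-5p is the highest member and miR-99a-5p the lowest of MT against control in all 6. Subtracting the median cancels a factor per array, apart from the floor.

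A ratio of members within an array does not depend on its scaling, apart from the floor. The log2 ratio of miR-99b-5p to miR-99a-5p, which have the same seed and lie on chromosomes 17 and 16, was -1.10 and -1.38 in the WT samples, -0.92 and -0.87 in the MT samples and -1.57 and -1.71 in the control samples. The groups did not overlap, with MT highest and control lowest. How often other pairs of tested miRNAs separate the groups was not counted. WT replicate 1, on the left side of the slide with MT, lay nearer to the MT samples. WT replicate 2, on the right side with control, lay nearer to the control samples. The ratio was 1.68-fold higher in MT than in control and 1.32-fold higher in WT than in control, and in WT it was 0.78 times that in MT. On the log2 scale WT against control fell from 0.40 to 0.26 without WT replicate 1, and WT against MT went from -0.35 to -0.21 without WT replicate 2. These are ratios of probe signals, so only their change between groups has a meaning. With 2 samples against 2, an exact permutation test cannot give a p below 0.33, and none is given.

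The ratio of miR-125b-5p to miR-99a-5p, which share the chromosome 16 cluster, ran the same way, with 3.75 and 3.48 in the WT samples, 3.88 and 3.96 in the MT samples and 3.59 and 3.31 in the control samples. It was 1.39-fold higher in MT than in control, and WT overlapped with control. The ratio of miR-125b-5p to miR-100-5p, its partner on chromosome 9, was 4.88 and 4.80 in WT, 4.99 and 4.97 in MT and 4.73 and 4.76 in control, a difference of 1.18-fold between MT and control. For this pair, too, the arrays of the groups did not overlap, the closest WT and control arrays being 4.78 and 4.76. On chromosome 17 the ratio of miR-125a-5p to miR-99b-5p ran from 0.85 to 1.07 over the 6 samples. It was 0.85 and 0.93 in MT, below the 1.07 and 0.99 of control. The ratio of miR-125a-5p to miR-125b-5p, the members that share the seed CCCUGAG, ran from -4.09 to -3.81. It was -3.95 and -3.91 in MT, above the -4.09 and -4.03 of control. In both pairs the WT arrays overlapped with those of MT and control.

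**Figure D4:**
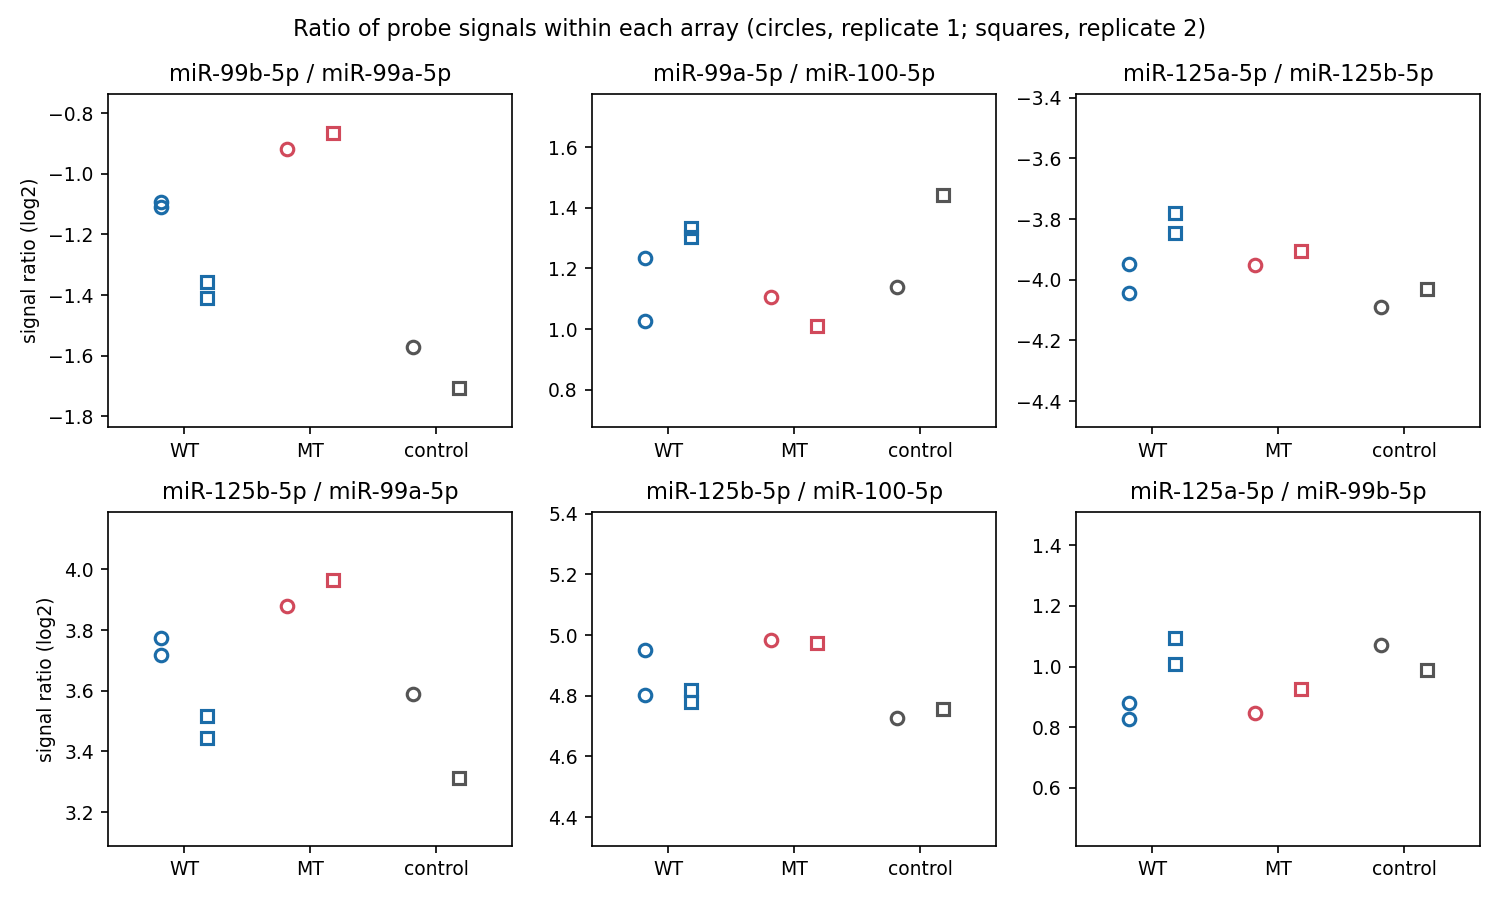
Log2 ratio of the signals of member pairs within each of the 8 arrays, in panels that span the same height, with circles for replicate 1 and squares for replicate 2. The ratios of miR-99b-5p to miR-99a-5p and of miR-125b-5p to miR-100-5p each separate the 3 groups. Those of miR-125a-5p to miR-99b-5p and of miR-125a-5p to miR-125b-5p vary by less than that of miR-99b-5p to miR-99a-5p.

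The side of the slide moved with the groups, with both MT samples on the left and both control samples on the right, so a term for the side in MT against control rests on the 2 WT samples alone. For samples on one side, WT replicate 2 lay above the mean of the control samples by 0.42 for miR-99b-5p, 0.44 for miR-125a-5p, 0.19 for miR-125b-5p, 0.16 for miR-99a-5p and 0.14 for miR-100-5p, with a median of 0.13 over all tested miRNAs. WT replicate 1 differed from the mean of the MT samples, on the same side, by 0.0030 for miR-99b-5p and by 0.21 for miR-99a-5p. The WT samples differed from each other across the sides by 0.26 for miR-99b-5p and 0.25 for miR-125b-5p, with replicate 1 higher. Fitted with that term, the difference in MT against control was 0.47 for miR-125a-5p, 0.42 for miR-99b-5p and 0.16 for miR-125b-5p, and 0 members and 3 of all 142 tested miRNAs had an unadjusted p under 0.05. In WT against control the fit with the term equals WT replicate 2 alone against the control samples, and 2 members, miR-99b-5p and miR-125a-5p, and 9 of all 142 had an unadjusted p under 0.05.

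Base composition moved with the differences as well. Across the 118 of 142 tested miRNAs with a RefSeq sequence, the share of G and C correlated with the log2 difference at Pearson's r = 0.51 for MT against control (Spearman's rho = 0.53) and 0.49 for WT against control (rho = 0.51), miRNAs not being independent replicates. Among the members the share was 63.6% for miR-99b-5p and 50% for each of the other 4. The part of base composition in these results was not tested. That of cross-hybridisation between miR-99a-5p and miR-100-5p, which differ at 1 base, was not tested either.

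The second, dimmer probe of each member gave the same direction as the brighter one in both comparisons with control. It gave 0.44 for WT and 0.67 for MT against control for miR-99b-5p, and 0.36 and 0.53 for miR-125a-5p. For miR-125b-5p the values were 0.22 and 0.40. The second probe of miR-100-5p gave larger differences than the first, 0.36 and 0.32, and that of miR-99a-5p gave 0.09 and -0.04.

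Across the 6 RNA samples, which share 1 slide, 1 scaling and 3 groups, 4 members correlated with each other and miR-99a-5p did not. These correlations also hold the differences between groups given above. Pearson's r between pairs of miR-99b-5p, miR-100-5p, miR-125a-5p and miR-125b-5p ran from 0.79 to 0.97, the highest being miR-99b-5p with its cluster neighbour miR-125a-5p. Between miR-99a-5p and the others it ran from -0.09 to 0.14. Among the 137 tested miRNAs that are no members, miR-99b-5p was most like miR-324-3p (r = 0.992), miR-193b-3p (0.990) and miR-34b-3p (0.986), and 16.8% of the 137 reached an r above 0.9 with it. The most like to miR-125a-5p were miR-320-3p (0.984), miR-324-3p (0.977) and miR-296-5p (0.970), and to miR-125b-5p let-7d-5p (0.994), miR-296-5p (0.978) and miR-361-5p (0.977). For miR-100-5p they were miR-331-3p (0.961), miR-31-5p (0.947) and miR-15b-5p (0.942). No miRNA was as close to miR-99a-5p, where miR-322-3p (0.755), miR-1187 (0.578) and miR-196b-5p (0.562) came first.

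The let-7 miRNAs, which restrain growth and pluripotency genes and are the mature products that Lin28 holds back, are the third element of each cluster. let-7c-5p, from the cluster of miR-99a-5p, measured 12.62, 12.83, 12.55 and 12.73 on the WT arrays, 12.93 and 12.64 in the MT samples and 12.09 and 12.27 in the control samples. Under this scaling it differed from control by 0.61 in MT (limma's adjusted p = 0.062) and 0.50 in WT (adjusted p = 0.14), while miR-99a-5p differed by -0.07 and 0.15. Without scaling the values of let-7c-5p were -0.05 in MT and 0.01 in WT. The ratio of let-7c-5p to miR-99a-5p was 1.60-fold higher in MT than in control, and its arrays did not overlap between the groups. let-7c-5p has a second gene outside this cluster, as let-7a-5p has genes outside that of miR-100-5p. let-7a-5p differed from control by 0.52 in MT (limma's adjusted p = 0.064) and 0.36 in WT (adjusted p = 0.17), and by -0.14 and -0.13 without scaling.

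let-7e-5p, whose only cluster is that of miR-99b-5p and miR-125a-5p, differed from control by 0.27 in MT (limma's adjusted p = 0.22) and 0.19 in WT (adjusted p = 0.42), and by -0.39 and -0.30 without scaling. Its ratio to miR-99b-5p was 2.21 and 2.46 in the WT samples, 2.28 and 2.29 in the MT samples and 2.57 and 2.83 in the control samples, on the log2 scale. The ratio was thus lower in both induced groups than in control (for WT -0.36 on the log2 scale, and -0.23 without control replicate 2). The closest WT and control samples, 2.46 and 2.57, lay nearer to each other than the control samples did. The lower WT sample, 2.21, was on the left side of the slide with MT, and the other on the right with control. The parts of slide side and base composition in this ratio were not tested. Of the 9 let-7 family miRNAs on the array, 0 passed the adjusted threshold in any comparison, as did 0% of all tested. Under this scaling 3 were higher in WT and 4 in MT than in control at an unadjusted p under 0.05, and 0 were lower. Of all tested miRNAs 17.6% were higher in WT and 26.8% in MT, and 15 and 18 of the 142 were lower. For let-7g-5p (-0.30) and let-7i-5p (-0.23) both MT arrays lay below both control arrays, which held for 38 of all 142 tested miRNAs. Both lay above for 6 of the 9 let-7 family miRNAs and for 58 of all 142.

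The other arms of the members' hairpins were at the limit of the array. miR-99b-3p, miR-125b-1-3p and miR-125b-2-3p were detected on 0 of 8 arrays, and miR-125a-3p on 3, 1 of each group. miR-10a-5p and miR-10b-5p, which resemble the miR-99/100 family in sequence and are encoded in the Hox clusters, were detected on no array, so the signals of miR-99a-5p, miR-99b-5p and miR-100-5p had no counterpart at the probes for miR-10. miR-351-5p, which shares the seed of miR-125 and was added after its values were seen, differed from control by 0.48 in WT (limma's adjusted p = 0.28) and 0.35 in MT (adjusted p = 0.39), and its arrays overlapped with those of control in both.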

How the data were processed

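Per the labels, Cy3-labelled total RNA was hybridised to one-colour Agilent miRNA arrays. The authors deposited the intensity of each spot after background subtraction and detrending by Feature Extraction (version 10.7.1.1 per the file headers, 9.1 in the submitters' processing notes), with no normalization between arrays. The header names build mm9, and the files hold no coordinates.

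Control and outlier spots were left out, and spots of a probe averaged. Arrays were divided by their own 75th percentile over 174 probes that all 8 arrays detected, floored at 4.08 (log2) and taken to log2. The brightest probe stood for a miRNA, and the 2 arrays of a WT sample were averaged. The 142 miRNAs detected on all arrays of a group were fitted with limma 3.58.1 in R 4.3.3 (3 groups, no block, Benjamini-Hochberg, threshold 0.05). The fit was tested on simulated data. Figures used matplotlib 3.10.9. The number of arrays limits the precision.

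The labels repeat 750 nM for the control group, taken here as no protein. The miRNAs named were the members, their let-7 partners, the other arms, miR-10 and, for each member, the 3 with the highest r. Members and lists were chosen with earlier results of these data known. Alternatives covered scaling, signal column, background, floor, filter, probes, outliers, technical arrays, blocks, fit and left-out replicates.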

Additional observations from a re-analysis of the deposited data

How the results depend on the processing

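The count of members past the adjusted p of 0.05 was 0 in all comparisons and stayed 0 for WT against MT in every setting. For WT against control it was 1 (miR-99b-5p) under normexp background correction, which called 22 of all 142 miRNAs. For MT against control normexp gave 2 (40 of all 142), a test of only those miRNAs that all 8 arrays detected gave 2 (29 of all 103), a random block for the RNA sample gave 1 (11 of all 142) and no scaling gave 1 (miR-99a-5p, lower, with 50 of all 142). Members with an unadjusted p under 0.05 numbered 2 for WT against control (40 of all 142), 3 for MT against control (56 of all 142) and 0 for WT against MT (0 of all 142). Against control they became 0 and 0 under scaling over all mouse probes (3 and 26 of all 142) and 0 and 1 without scaling (42 and 60 of all 142). The total gene signal gave 1 for WT against control (12 of all 166). A term for the slide side gave 0 for MT against control (3 of all 142). For WT against MT, no filter gave 1 (8 of all 611) and the second technical array alone 1 (2 of all 142). Fits with 1 replicate left out hold 1 sample in a group, and their counts are not given. The setting without scaling was chosen after seeing the data.

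The replicate block left the adjusted calls at 0 and the unadjusted counts at 2, 3 and 0 (41, 58 and 1 of all 142 miRNAs). Deviations of same-numbered samples correlated at 0.02 (WT with MT), 0.39 (WT with control) and -0.46 (MT with control), so the numbers were not taken as pairs. A replicate block with the MT and control numbers crossed, chosen after seeing the data, gave 2 adjusted calls for MT against control, and 31 over all 142 miRNAs.

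Signs turned as follows, on the log2 scale. Scaling over all mouse probes gave for WT against control -0.20 (miR-99a-5p), -0.14 (miR-100-5p), -0.043 (miR-125b-5p) and -0.17 (let-7e-5p), for MT against control -0.037 (miR-99b-5p), -0.55 (miR-100-5p), -0.18 (miR-125a-5p), -0.31 (miR-125b-5p), -0.20 (let-7a-5p), -0.11 (let-7c-5p) and -0.45 (let-7e-5p), and for WT against MT 0.23 (miR-99b-5p), 0.30 (miR-125a-5p), 0.27 (miR-125b-5p), 0.20 (let-7a-5p), 0.25 (let-7c-5p) and 0.28 (let-7e-5p). No scaling gave for WT against control -0.34 (miR-99a-5p), -0.27 (miR-100-5p), -0.019 (miR-125a-5p), -0.18 (miR-125b-5p), -0.13 (let-7a-5p) and -0.30 (let-7e-5p), for MT against control -0.50 (miR-100-5p), -0.12 (miR-125a-5p), -0.26 (miR-125b-5p), -0.14 (let-7a-5p), -0.049 (let-7c-5p) and -0.39 (let-7e-5p), and for WT against MT 0.039 (miR-99b-5p), 0.10 (miR-125a-5p), 0.081 (miR-125b-5p), 0.00625 (let-7a-5p), 0.062 (let-7c-5p) and 0.087 (let-7e-5p). Both settings move the median of all tested miRNAs. In WT against MT, let-7e-5p gave 0.037 under quantile normalization and 0.032 with the second technical array alone, where miR-125a-5p gave 0.019. With the side term miR-100-5p gave -0.00456 for MT against control, and miR-99b-5p 0.0030 and miR-125b-5p 0.037 for WT against MT. With 1 replicate left out, WT against MT ran from -0.027 (without WT replicate 1) to 0.14 for miR-100-5p, from -0.26 to 0.0030 (without WT replicate 2) for miR-99b-5p, from -0.21 to 0.037 (without WT replicate 2) for miR-125b-5p and from -0.25 to 0.038 (without MT replicate 1) for let-7c-5p. For other turned signs the cause was not tested. The fit with no filter rests on variances that are mostly 0 at the floor.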
